A study of Arabidopsis thaliana with 48 samples.

Results

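At 4 h after an acclimating heat treatment, *hsfa2* seedlings were compared with wild-type Col seedlings at the same time point. The members were taken from the labels by genotype and time, which gave 6 of the 48 RNA-seq libraries of the series, 3 of *hsfa2* and 3 of Col. *hsfa2* seedlings carried the *hsfa2-1* insertion allele, a single line in the Col-0 background, and Col seedlings carried no mutation. Both genotypes were 4 d old and had received ACC, which is 1 h at 37 °C, 90 min at 23 °C and 45 min at 44 °C, and both were harvested 4 h later. Unheated seedlings of both genotypes (no HS), seedlings of both harvested 28 h or 52 h after the end of ACC and the insertion mutant *hsfa3-1* without HS and at 4 h, all in the same background and with 3 libraries each, were used for reference. The methods call the 3 libraries of a group biological replicates without saying how the plants were grown apart. The p-values measure the spread between such libraries, estimated over all groups of the 48 libraries together and, unless a replicate block is named, without the replicate numbers.

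Plants answer heat stress (HS) through heat shock transcription factors (HSFs), which bind heat shock elements, short inverted repeats of GAA, in the promoters of chaperone genes. Factors of the HSFA1 class are present before stress and start the response, and HSFA2 is itself strongly induced by heat and prolongs or strengthens the expression of a subset of heat-induced genes. In type I transcriptional memory, expression stays raised for days after the stress, and in type II memory a gene responds more strongly to a later heat stimulus. HSFA2 is known for its part in both.

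Read pairs counted on protein-coding genes ranged from 31832196 to 33861060 in *hsfa2* libraries and from 31822703 to 33565096 in Col libraries at 4 h, so that depth was nearly equal. Levels are given as CPM, counts per 1000000 read pairs with TMM-scaled library sizes, and 3 counts, taken as the smallest level that can be told from 0, corresponded to between 0.0954 and 0.108 CPM. These floors cover counting error only. Deviations from the group means were shared by same-numbered libraries, and replicate 1 of both genotypes held the highest levels of many chaperone genes. The summed level of 17 photosynthesis genes was 59934, 39011 and 45079 CPM in *hsfa2* and 58862, 49580 and 54795 CPM in Col, that of 7 root genes was 69.6, 154 and 101 CPM in *hsfa2* and 54.1, 121 and 103 CPM in Col, and that of 7 seed storage genes was between 5.91 and 23.47 CPM in *hsfa2* and between 3.06 and 17.5 CPM in Col. Both photosynthesis and root markers were present in every library, and none of the 31 marker genes tested was called. Their part in the results was not tested, and in bulk seedling RNA fewer cells of a type and less RNA per cell cannot be told apart.

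The transcript of the mutated gene was examined first. *HSFA2* (AT2G26150, chromosome 2) had 72.4, 71.5 and 43.5 CPM in *hsfa2* seedlings at 4 h, against 1589, 1237 and 1341 CPM in Col seedlings. All *hsfa2* libraries lay far below all Col libraries, with a log2 fold change of −4.47 (standard error 0.553, adjusted p = 1.78e-07). Here and below, adjusted p-values are those of edgeR's quasi-likelihood test after the Benjamini-Hochberg procedure over all genes tested. Read pairs on *HSFA2* still increased with ACC in the mutant, which held between 0.334 and 1.36 CPM without HS, and the position of these reads within the gene cannot be read from the counts.

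Because the comparison concerns a transcription factor, the stretches of promoter that hold its binding element are shown for *HSFA2* and for several genes described below. They come from the RefSeq TAIR10.1 genome and lie within 250 bases upstream of the annotated gene start. Capitals mark the GAA and TTC units of each core, GAANNTTC or TTCNNGAA, and the sequences run 5′ to 3′ on the strand of the gene. *HSFA2* is at chr2:11135526-11135558 on the plus strand, *HSFA1E* at chr3:673374-673401 on the plus strand, *MYB86* at chr5:9333367-9333394 on the minus strand, *APX2* at chr3:2956085-2956112 on the plus strand, *GOLS1* at chr2:19370556-19370588 on the minus strand and *HSP21* at chr4:13820054-13820081 on the minus strand.
HSFA2: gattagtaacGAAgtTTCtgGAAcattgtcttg
HSFA1E: ctccaccgctTTCtgGAAttaaaaaaat
MYB86: ctatctatcgTTCgaGAAaaaaaaaaga
APX2: agtgaaactaGAAgcTTCattttgatca
GOLS1: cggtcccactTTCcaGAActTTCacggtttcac
HSP21: aacgagtcgaGAAacTTCgtatcaaatc
The stretches of *HSFA2* and *GOLS1* hold 3 adjoining units and the others 2. Only genes with a core could be shown, and those shown are a selection that were all lower in *hsfa2*. Cores also lay in the windows of *HSFA4A*, *AT4G31615*, *AT5G03435*, *HSP15.7*, *HSP26.5*, *HSA32* and *FTSH6*, which were lower. They lay as well in those of *GALS3* and *AT2G13550*, which were higher, and of *HSP101* and *HSP70*, which were not called. The window of *HSP70* also held 3 adjoining units. The cores of *HSP70*, *HSP101* and *AT5G03435* lay after the annotated start. Further cores outside the printed stretches lay in the windows of *HSFA2*, *APX2* and *HSP21*. No core was found in the windows, 250 bases before to 50 after the start, of *MIPS2*, *LACS9*, *LPAT5*, *DGS1*, *HSFA1D*, *FD*, *AT5G11140*, *AT1G33350*, *HSP18.2*, *HSP22*, *HSP70-16* or *UBQ14*, which are also described below. Only exact cores were searched, so that other forms of the element and more distant ones would be missed. By chromatin immunoprecipitation, the study reports HSFA2 and HSFA3 at promoter sequences with heat shock elements of *HSP18.2*, *HSP22*, *HSA32* and *APX2*. It reports both factors at *HSP101* as well, without an effect on the expression of that gene. Each core reads the same on both strands, and the longer motif of 3 units contains the shorter one.

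Across all genes, the difference between *hsfa2* and Col at 4 h was mainly one of lower levels in *hsfa2*. Of 21107 genes tested, 1065 (5.05%) were lower and 154 (0.73%) higher in *hsfa2* at an adjusted p below 0.05. With a log2 fold change beyond 1 as a further condition, 299 (1.42%) were lower and 22 (0.104%) higher. The median log2 fold change was −0.66 among the genes called lower, 0.51 among those called higher and 0.02 over all genes. With the replicate number as a block, 1368 genes were lower and 310 higher. Without *hsfa2* replicate 2 the higher genes numbered 98, and without Col replicate 3 they numbered 78.

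**Figure D1:**
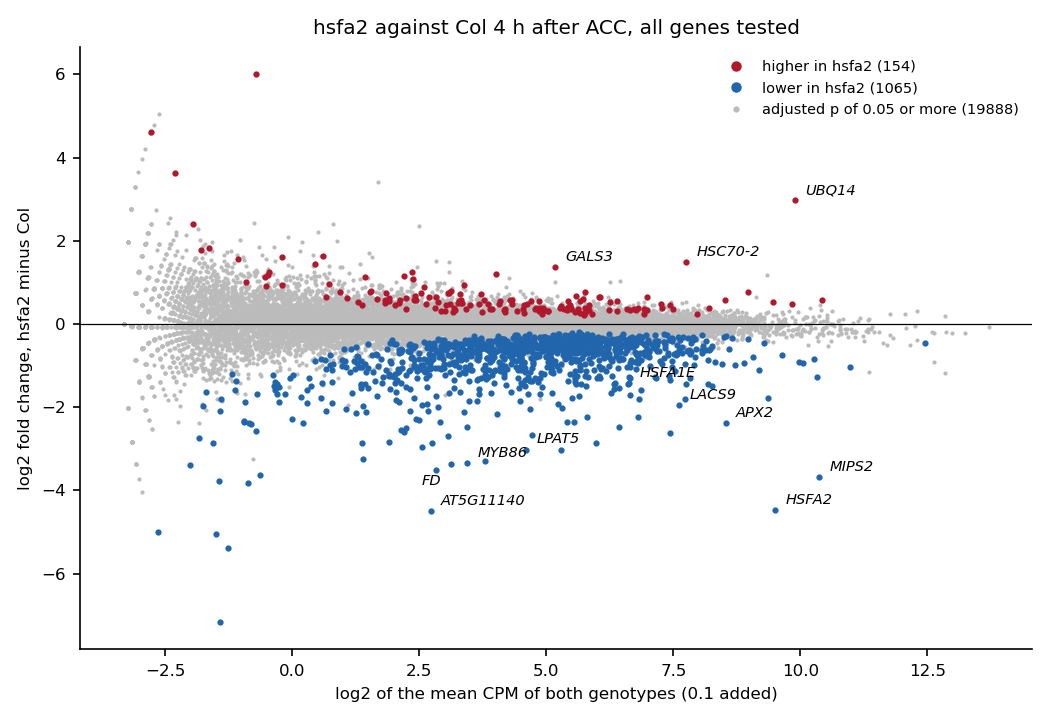
Log2 fold change of *hsfa2* minus Col at 4 h after ACC against the log2 of the mean CPM, 1 point per gene tested. The 1065 genes lower in *hsfa2* outnumber the 154 higher ones, and *HSFA2*, *MIPS2* and *UBQ14* stand out among genes with high levels.

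Without HS, the genotypes differed in very few genes. By edgeR's quasi-likelihood test 4 genes (0.019%) were lower and 5 (0.0237%) higher in *hsfa2*, while 561 passed an unadjusted p of 0.05 and DESeq2 called 8. The difference between genotypes at 4 h was itself tested against that without HS, and it was more negative at 4 h for 533 genes (2.53%) and more positive for 18 (0.0853%). Of the 1065 genes lower at 4 h 527 were among the 533, and all 18 were among the 154 higher at 4 h. Both tests contain the same difference at 4 h, so that much of this overlap follows from how they are built. The median log2 fold change of the 1065 genes, which were picked by their values at 4 h, was −0.0025 without HS and −0.14 at 28 h.

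The response of each gene to heat was taken from *hsfa3-1*, whose libraries belong to neither *hsfa2* nor Col, by comparing 4 h with no HS in that mutant. Of the 7185 genes that were higher after ACC in *hsfa3-1*, 709 (9.87%) were lower in *hsfa2* than in Col at 4 h and 64 (0.891%) higher. These 709 made up 66.6% of all genes lower in *hsfa2*, while genes higher after ACC were 34.0% of the genes tested. The share that was lower in *hsfa2* was 2.09% among the 7567 genes that fell after ACC, 7.40% among the 4065 genes that rose by a log2 fold change below 1, 12.7% among the 2640 that rose by 1 to 3, 14.5% among the 304 that rose by 3 to 5 and 17.0% among the 176 that rose by more than 5. Most of the strongly heat-induced genes were not called in *hsfa2*, and the median log2 fold change of the 176 was −0.14.

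**Figure D2:**
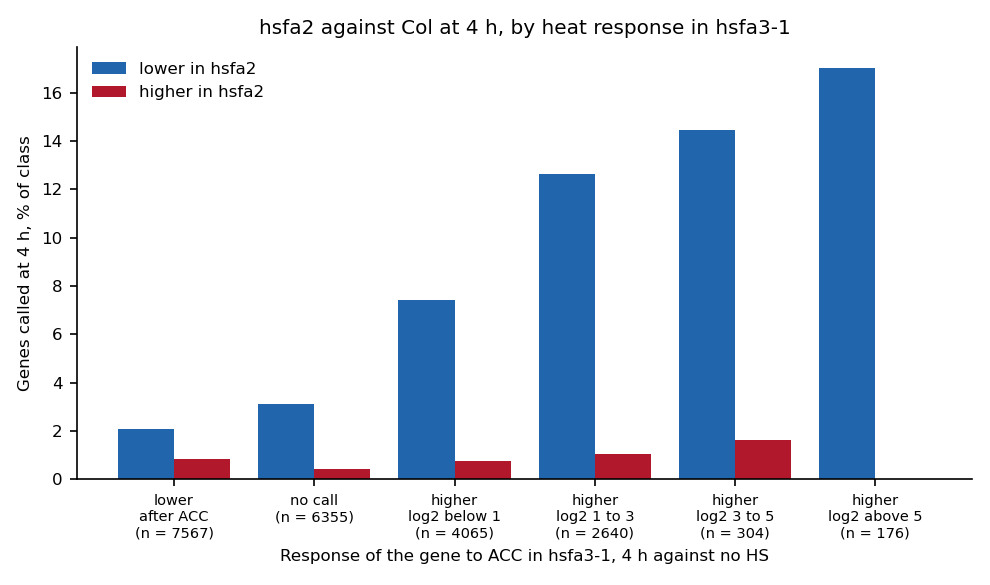
Share of genes called lower or higher in *hsfa2* than in Col at 4 h, in percent of each class, for classes of genes set by their log2 response to ACC in *hsfa3-1*. The share lower in *hsfa2* is 2.09% among genes that fell after ACC and 17.0% among the 176 that rose most.

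Among the class A HSFs, the activators of the heat response, 4 of 14 tested genes were lower in *hsfa2* and none higher, with a median log2 fold change of 0.08, beside 5.05% of all genes lower and 0.73% higher. Apart from *HSFA2*, the mutated gene, these were *HSFA1E*, *HSFA1D* and *HSFA4A*. *HSFA1E* (AT3G02990, chromosome 3), a member of the HSFA1 class, had 64.8, 47.3 and 49.3 CPM in *hsfa2*, against 159, 138 and 132 CPM in Col. The groups did not overlap, and the log2 fold change was −1.41 (standard error 0.116, adjusted p = 1.09e-11). *HSFA1D* (AT1G32330, chromosome 1), of the same class, had 37.3, 33.6 and 31.4 CPM in *hsfa2* and 65.2, 63.4 and 58.1 CPM in Col, a log2 fold change of −0.87 (standard error 0.0841, adjusted p = 6.64e-10). Without HS the levels of both genes overlapped between genotypes, 4.50 to 5.86 CPM in *hsfa2* and 4.04 to 5.99 CPM in Col for *HSFA1E* and 16.2 to 18.22 CPM in *hsfa2* and 15.5 to 16.8 CPM in Col for *HSFA1D*. The other genes of the class, *HSFA1A* and *HSFA1B*, had log2 fold changes of 0.09 (adjusted p = 0.871) and 0.08 (adjusted p = 0.921).

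*HSFA4A* (AT4G18880, chromosome 4), a class A factor linked to oxidative stress, had 8.68, 6.07 and 6.71 CPM in *hsfa2* and 18.4, 16.7 and 18.22 CPM in Col, and was lower by a log2 fold change of −1.31 (adjusted p = 0.00899). Without *hsfa2* replicate 2 its adjusted p was 0.0701. *HSFA3* (AT5G03720, chromosome 5), which overlaps a neighbouring gene, had 1694, 1160 and 1085 CPM in *hsfa2* and 1129, 1002 and 893 CPM in Col. The groups overlapped and *HSFA3* was not called (log2 fold change 0.38, standard error 0.173, adjusted p = 0.287). Of the 5 class B and C factors, which lack the activation motif of class A, 1 was lower, beside 5.05% of all genes. It was *HSFB2A* (AT5G62020, chromosome 5), with 108, 70.9 and 66.9 CPM in *hsfa2* and 159, 125 and 135 CPM in Col (log2 fold change −0.77, adjusted p = 0.031). This call was lost without *hsfa2* replicate 2 or 3 and without Col replicate 1 or 3, with adjusted p-values between 0.0656 and 0.194.

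**Figure D3:**
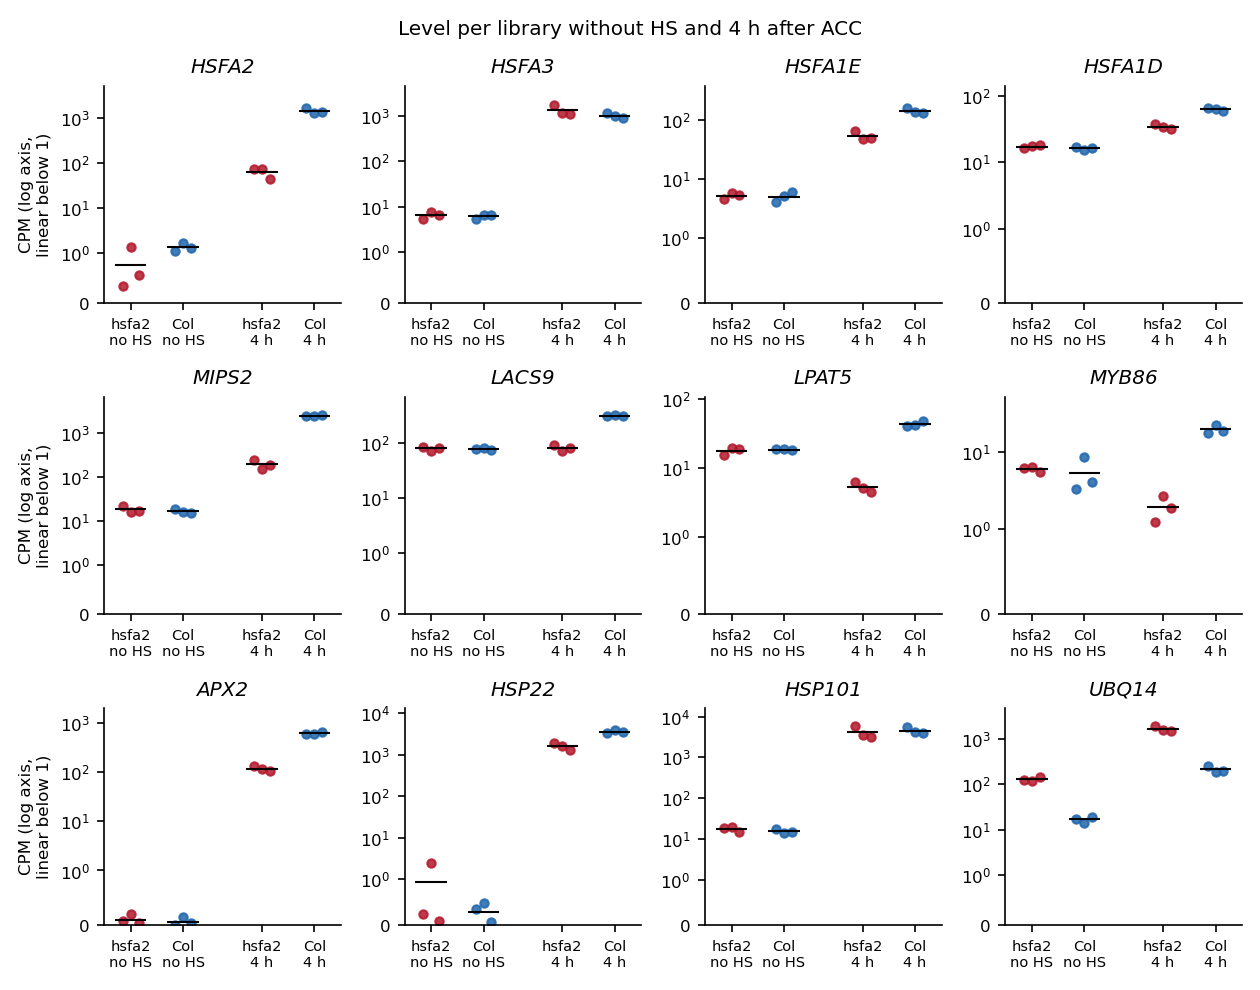
Level in CPM of 12 genes in each of the 3 libraries of *hsfa2* and Col without HS and at 4 h after ACC, on a log axis that is linear below 1 CPM, with bars at the means. *MIPS2*, *LACS9*, *LPAT5* and *MYB86* passed the test between *hsfa2* and Col at 4 h and not without HS, while *UBQ14* passed it in both.

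Genes that respond more strongly to repeated heat had been chosen for qRT-PCR in a separate experiment. The study reports that their stronger response to repeated heat required *HSFA2*, so that these genes were known in advance to depend on it. All 7 of those listed here were lower in *hsfa2* than in Col at 4 h after ACC, with a median log2 fold change of −2.38 beside 0.02 over all genes and 5.05% of all genes lower. The qRT-PCR set also held *TPR1*, which is not counted here because the gene table gives that symbol to both AT4G30480 and AT1G80490. AT4G30480, a tetratricopeptide repeat gene that overlaps another and was picked with its values known, had 40.8, 37.7 and 36.8 CPM in *hsfa2*, against 88.9, 93.9 and 92.9 CPM in Col (log2 fold change −1.26, adjusted p = 9.58e-15). AT1G80490, a TOPLESS-related corepressor, averaged 77.9 CPM in *hsfa2* and 79.5 CPM in Col (log2 fold change −0.03, adjusted p = 0.952). For each of the 7 counted genes, no library of *hsfa2* at 4 h reached the range of Col, as for 10.4% of all genes tested.

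*MIPS2* (AT2G22240, chromosome 2), a synthase for inositol phosphate, the precursor of inositol, had 245, 147 and 184 CPM in *hsfa2*, against 2427, 2438 and 2501 CPM in Col. Without HS it had 15.9 to 22.2 CPM in *hsfa2* and 15.41 to 18.6 CPM in Col. It was thus induced in both genotypes and ended 12.8-fold lower in *hsfa2* (log2 fold change −3.68, standard error 0.200, adjusted p = 2.30e-16). *MIPS2* overlaps neighbouring genes.

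*LPAT5* (AT3G18850, chromosome 3), a lysophosphatidyl acyltransferase of glycerolipid synthesis, had 6.29, 5.21 and 4.45 CPM in *hsfa2*, against 40.8, 41.5 and 47.0 CPM in Col (log2 fold change −3.02, adjusted p = 3.31e-17). *MYB86* (AT5G26660, chromosome 5), a MYB transcription factor, had 1.21, 2.70 and 1.84 CPM in *hsfa2*, against 17.81, 22.4 and 18.7 CPM in Col (log2 fold change −3.35, adjusted p = 2.29e-10). These genes changed in opposite directions with ACC. Compared with no HS, *LPAT5* was lower at 4 h in *hsfa2* by a log2 fold change of −1.75 (adjusted p = 7.73e-13) and higher in Col by 1.23 (adjusted p = 9.90e-10), and *MYB86* was lower in *hsfa2* by −1.63 (adjusted p = 1.34e-05) and higher in Col by 1.89 (adjusted p = 3.57e-07).

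*LACS9* (AT1G77590, chromosome 1), an acyl-CoA synthetase of the plastid envelope, had 91.0, 71.3 and 80.3 CPM in *hsfa2*, against 309, 313 and 309 CPM in Col (log2 fold change −1.94, standard error 0.0957, adjusted p = 3.12e-17). Its levels in *hsfa2* at 4 h were within the range of unheated *hsfa2* seedlings, 70.6 to 84.99 CPM, in all but 1 library. *APX2* (AT3G09640, chromosome 3), a cytosolic ascorbate peroxidase that is nearly silent without heat, had 132, 117 and 107 CPM in *hsfa2* and 614, 601 and 647 CPM in Col, and was lower by 5.22-fold (log2 fold change −2.38, adjusted p = 1.02e-08). *DGS1* (AT5G12290, chromosome 5), found as a suppressor of a galactolipid mutant, had 56.9, 55.6 and 57.6 CPM in *hsfa2* and 76.7, 71.9 and 77.1 CPM in Col. The difference of *DGS1* was small and exceeded the narrow spread of both groups (log2 fold change −0.41, standard error 0.0701, adjusted p = 7.21e-05).

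Small heat shock proteins hold denatured proteins in a soluble state. None of the 6 cytosolic class I genes, 1 of the 5 other cytosolic or peroxisomal genes and 2 of the 5 organelle genes were lower in *hsfa2*, beside 5.05% of all genes, and none was higher. The medians of these lists were −0.44, −0.27 and −1.16. The summed level of class I was 22882, 18401 and 15124 CPM in *hsfa2*, against 27572, 27027 and 25948 CPM in Col, so that the groups did not overlap although no member was called. Members of this class share much of their sequence, and reads could be split between them.

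*HSP18.2* (AT5G59720, chromosome 5), a class I protein, had 5159, 4294 and 3781 CPM in *hsfa2* and 8165, 8302 and 8257 CPM in Col. *HSP22* (AT4G10250, chromosome 4), a small HSP of the endoplasmic reticulum, had 1884, 1654 and 1317 CPM in *hsfa2* and 3359, 3953 and 3519 CPM in Col. All *hsfa2* libraries were below all Col libraries for both, as they were for 10.4% of all genes tested (7.35% were above), but in the model of all libraries neither was called (*HSP18.2* log2 fold change −0.90, standard error 0.380, adjusted p = 0.224 and *HSP22* −1.16, standard error 0.466, adjusted p = 0.188). With only the 6 libraries at 4 h in the fit, the standard errors were 0.139 and 0.152 and the adjusted p-values 0.0105 and 0.00476.

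Called among the organelle genes were *HSP26.5* and *HSP21*. *HSP26.5* (AT1G52560, chromosome 1) had 350, 287 and 259 CPM in *hsfa2* and 904, 1050 and 1110 CPM in Col (log2 fold change −1.77, adjusted p = 0.00111). *HSP21* (AT4G27670, chromosome 4), the small HSP of the plastid, had 841, 768 and 643 CPM in *hsfa2* and 1674, 1815 and 1984 CPM in Col (log2 fold change −1.28, adjusted p = 0.045). The call of *HSP21* was lost on leaving out any of the 6 libraries, with adjusted p-values between 0.0707 and 0.186. Outside the organelles, *HSP15.7* (AT5G37670, chromosome 5) had 156, 87.9 and 107 CPM in *hsfa2* and 241, 207 and 269 CPM in Col (log2 fold change −1.03, adjusted p = 0.00362), with an adjusted p of 0.0579 without *hsfa2* replicate 2.

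The protein disaggregases and HSA32 act in the recovery from heat and in acquired thermotolerance. Of their 4 genes, the mitochondrial *CLPB4* and *HSA32* were lower and none was higher, beside 5.05% and 0.73% of all genes. *HSA32* (AT4G21320, chromosome 4), which overlaps a neighbouring gene, had 279, 220 and 196 CPM in *hsfa2* and 387, 324 and 358 CPM in Col (log2 fold change −0.62, adjusted p = 0.0451). *CLPB4* (AT2G25140, chromosome 2) had 281, 214 and 176 CPM in *hsfa2* and 381, 329 and 324 CPM in Col (log2 fold change −0.62, adjusted p = 0.0401). Both calls were lost without *hsfa2* replicate 2 or 3 or without any single Col replicate, with adjusted p-values between 0.0539 and 0.269. *HSP101* (AT1G74310, chromosome 1), the cytosolic disaggregase, whose gene overlaps another, had 5970, 3491 and 3120 CPM in *hsfa2* and 5440, 4080 and 4001 CPM in Col. The groups overlapped, with replicate 1 highest in both (log2 fold change −0.10, standard error 0.371, adjusted p = 0.958), and the sign turned on leaving out *hsfa2* replicate 2 or 3 or Col replicate 1 (0.012, 0.070 and 0.054).

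Chaperones of the HSP70 and HSP90 families showed members lower and higher in *hsfa2*. Of 10 cytosolic and nuclear HSP70 genes 2 were lower and 1 was higher, beside 5.05% and 0.73% of all genes, with a median log2 fold change of 0.01. With the replicate block 3 were lower, the added one being *HSP70B* (log2 fold change −1.30, adjusted p = 0.0366, against 0.357 without the block). *HSP70-16* (AT1G11660, chromosome 1) had 138, 106 and 104 CPM in *hsfa2*, against 337, 312 and 300 CPM in Col (log2 fold change −1.45, standard error 0.0884, adjusted p = 5.34e-15). *HSP70T-1* (AT1G56410, chromosome 1) had 2.45, 2.44 and 2.19 CPM in *hsfa2* and 8.09, 11.6 and 10.7 CPM in Col (adjusted p = 0.0121), and its call was lost without *hsfa2* replicate 2 or 3 (adjusted p = 0.0527 and 0.0651). In contrast, *HSC70-2* (AT5G02490, chromosome 5) had 271, 387 and 296 CPM in *hsfa2*, against 85.9, 152 and 104 CPM in Col, and was higher by 2.79-fold (log2 fold change 1.48, standard error 0.274, adjusted p = 0.000224). *HSP70* (AT3G12580, chromosome 3), the most abundant inducible member, had 16407, 11974 and 10938 CPM in *hsfa2* and 15028, 13591 and 12377 CPM in Col, which overlapped (log2 fold change −0.06, standard error 0.393, adjusted p = 0.983).

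Of 4 organelle HSP70 genes 1 was lower, beside 5.05% of all genes. It was *CPHSC70-1* (AT4G24280, chromosome 4), which is needed for protein import and folding in the plastid, with 890, 901 and 872 CPM in *hsfa2*, against 1528, 1678 and 1570 CPM in Col (log2 fold change −0.84, adjusted p = 3.63e-06). Of 7 HSP90 genes 1 was higher and none was lower, beside 0.73% and 5.05% of all genes. The higher one was *HSP90.3* (AT5G56010, chromosome 5), with 1795, 1710 and 1412 CPM in *hsfa2* and 1113, 1151 and 1030 CPM in Col (log2 fold change 0.58, adjusted p = 0.00594). Cytosolic HSP70 and HSP90 genes each have near-identical copies, so that reads may be split between them. No member was called among 14 co-chaperones, 10 organelle chaperonins and 14 genes of the endoplasmic reticulum stress response, whose medians were 0.03, 0.04 and 0.15. With the replicate block 1 co-chaperone, *ATJ2* (log2 fold change 0.26, adjusted p = 0.0449), and 1 endoplasmic reticulum gene, *BIP3* (log2 fold change 0.50, adjusted p = 0.0374), were higher.

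**Figure D4:**
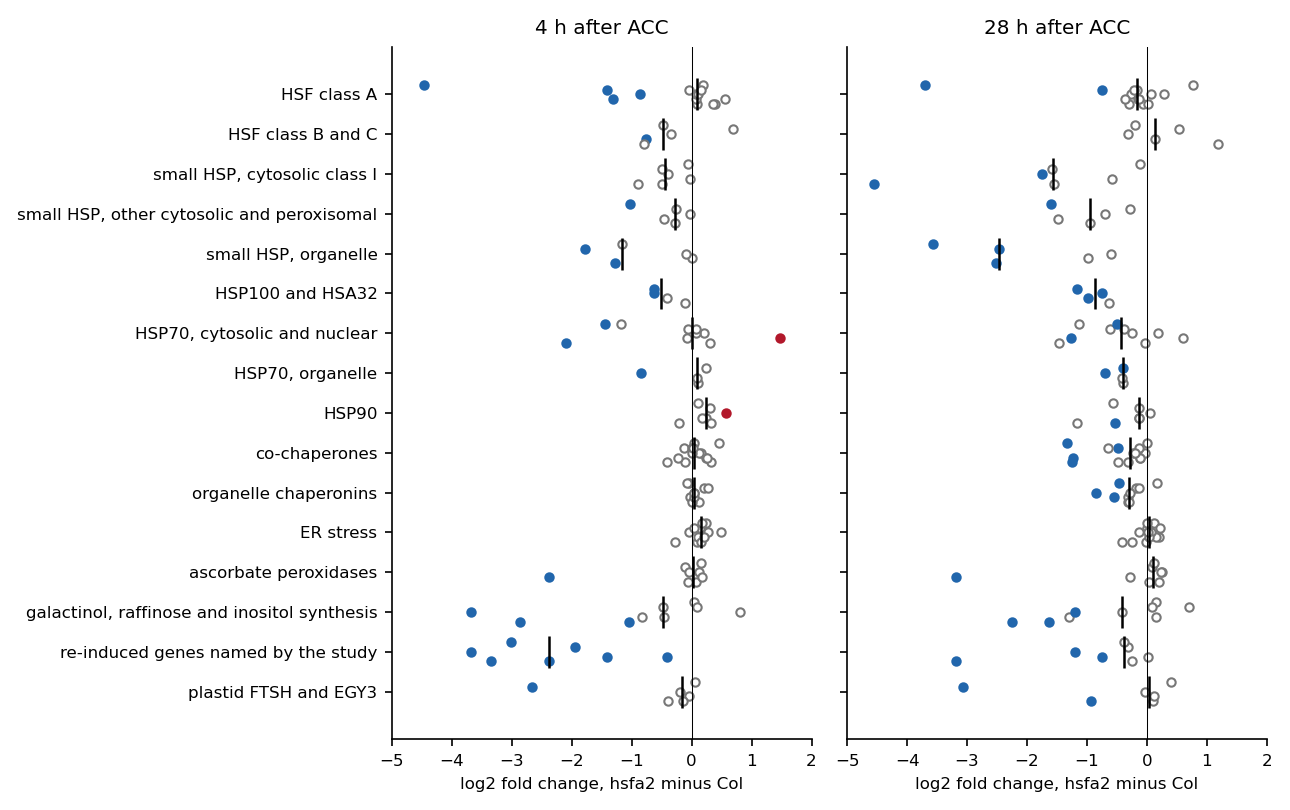
Log2 fold change of *hsfa2* minus Col for each tested member of 16 gene lists at 4 h (left) and 28 h (right) after ACC. Filled points passed an adjusted p of 0.05 (blue lower, red higher in *hsfa2*), open points did not, and black bars are the medians, which for cytosolic class I small HSPs are −0.44 at 4 h and −1.56 at 28 h.

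Of 9 genes for galactinol, raffinose and inositol synthesis, which make protective sugars, 3 were lower and none was higher, with a median of −0.47, beside 5.05% and 0.73% of all genes. With the replicate block 4 were lower, *GOLS2* being added (log2 fold change −0.86, adjusted p = 0.00677). Besides *MIPS2* these were *GOLS1* and *STS*. *GOLS1* (AT2G47180, chromosome 2), a galactinol synthase at the entry to raffinose synthesis, had 1600, 1207 and 1147 CPM in *hsfa2* and 2735, 2540 and 2870 CPM in Col (log2 fold change −1.04, adjusted p = 0.0294), and it overlaps a neighbouring gene. *STS* (AT4G01970, chromosome 4), stachyose synthase, had 0.818, 0.626 and 0.350 CPM in *hsfa2* and 3.70, 5.20 and 4.101 CPM in Col (log2 fold change −2.86, adjusted p = 5.87e-05). The call of *GOLS1* was lost without *hsfa2* replicate 2 or 3 or without any single Col replicate, with adjusted p-values between 0.0504 and 0.140.

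Single members were lower in other lists, beside 5.05% of all genes. *FTSH6* (AT5G15250, chromosome 5), a plastid metalloprotease that was at or near 0 without HS, had 8.57, 5.57 and 7.15 CPM in *hsfa2*, against 39.0, 41.9 and 53.8 CPM in Col (log2 fold change −2.66, adjusted p = 8.51e-05). It was the only gene of 6 in its list that was called without the replicate block, and *FTSH1* was called as well with it (log2 fold change −0.41, adjusted p = 0.002). *FTSH6* overlaps a neighbouring gene. *LOX3* (AT1G17420, chromosome 1), a lipoxygenase of jasmonate synthesis and the only called gene of 9 in the jasmonate list, had 5.65, 4.81 and 4.64 CPM in *hsfa2* and 8.20, 8.70 and 8.42 CPM in Col (log2 fold change −0.75, adjusted p = 0.00362). No gene was called by edgeR among 10 autophagy, 18 dehydration and cold, 7 oxidative and wound, 10 salicylic acid, 10 flavonoid, 12 clock and 13 cell cycle genes, whose medians were between −0.03 and 0.18. With the replicate block 1 autophagy gene, *ATG8D* (log2 fold change 0.24, adjusted p = 0.0375), and 2 dehydration and cold genes, *COR15B* (1.28, adjusted p = 0.0119) and *RD20* (1.08, adjusted p = 0.0148), were higher.

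The 10 largest falls with groups that did not overlap included *HSFA2*, *MIPS2* and *MYB86*. *FD* (AT4G35900, chromosome 4), a bZIP factor that acts with the florigen FT, had 1.17, 1.71 and 1.68 CPM in *hsfa2*, against 12.3, 19.7 and 15.01 CPM in Col (log2 fold change −3.36, standard error 0.183, adjusted p = 2.30e-16). *AT5G11140* (chromosome 5), annotated as a phospholipase-like protein of the PEARLI 4 family, had 0.605, 0.495 and 0.540 CPM in *hsfa2*, against 10.97, 14.0 and 12.4 CPM in Col, the most negative log2 fold change of the 10 at −4.50 (adjusted p = 4.67e-10). *AT1G33350* (chromosome 1), a pentatricopeptide repeat protein, had 9.32, 8.24 and 7.95 CPM in *hsfa2*, against 67.0, 62.6 and 79.3 CPM in Col (log2 fold change −3.03, adjusted p = 8.54e-17). All of these were low without HS in both genotypes, with no more than 2.38 CPM for *FD*, 0.267 CPM for *AT5G11140* and 3.82 CPM for *AT1G33350*.

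*AT4G31615* (chromosome 4), a B3 family transcription factor that overlaps a neighbouring gene, had 1.07, 0.890 and 1.399 CPM in *hsfa2*, against 11.6, 13.7 and 13.1 CPM in Col (log2 fold change −3.51, adjusted p = 5.01e-10). A second B3 gene at the neighbouring locus, *AT4G31620*, named after its values were seen, had 1.64, 0.923 and 1.37 CPM in *hsfa2* and 8.52, 10.1 and 12.02 CPM in Col (log2 fold change −2.96, adjusted p = 1.13e-11). *AT5G49200* (chromosome 5), a WD-40 repeat protein, had 1.71, 3.20 and 2.70 CPM in *hsfa2* and 23.596, 26.1 and 25 CPM in Col (log2 fold change −3.29, adjusted p = 6.93e-09). *AT5G03435* (chromosome 5), annotated as a phosphoribosyltransferase, had 0.249, 0.593 and 0.572 CPM in *hsfa2* and 3.06, 5.95 and 4.67 CPM in Col (adjusted p = 4.45e-06), and *AT2G34185* (chromosome 2), an uncharacterized gene that overlaps another, had 0, 0.165 and 0.0636 CPM in *hsfa2* and 0.719, 1.33 and 0.963 CPM in Col (adjusted p = 1.08e-05). The *hsfa2* levels of *AT2G34185* were near the level of 3 counts.

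The 10 largest rises were taken among genes with groups that did not overlap and a mean of at least 1 CPM. Of all genes called higher, 3 had a log2 fold change above 3, and these did not meet that rule. Among the 10, the highest fold in *hsfa2* was that of *UBQ14* (AT4G02890, chromosome 4), a polyubiquitin gene, with 1911, 1619 and 1513 CPM in *hsfa2*, against 257, 189 and 195 CPM in Col (log2 fold change 2.98, standard error 0.181, adjusted p = 4.84e-15). It differed by as much without HS, with 126, 121 and 143 CPM in *hsfa2*, against 17.1, 14.1 and 19.4 CPM in Col (log2 fold change 2.94, adjusted p = 1.12e-13), and the difference between these effects was 0.03 (standard error 0.242, adjusted p = 1). At 4 h the mean was 1646 CPM in *hsfa3-1*, a line in which *HSFA2* is intact, and *hsfa2* and *hsfa3-1* differed by a log2 fold change of 0.03 (standard error 0.168). Polyubiquitin genes are near copies of each other and *UBQ14* overlaps a neighbouring gene, so that its counts are uncertain. Among the related genes, chosen after their values were seen, *UBQ10* had 5781, 4170 and 4204 CPM in *hsfa2* and 6552, 6373 and 6535 CPM in Col (log2 fold change −0.46, adjusted p = 0.0118), and *UBQ11* had 1538, 1389 and 1306 CPM in *hsfa2* and 1487, 1442 and 1531 CPM in Col (log2 fold change −0.08, adjusted p = 0.877).

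*GALS3* (AT4G20170, chromosome 4), a galactan synthase of the cell wall, had 61.3, 53.0 and 41.5 CPM in *hsfa2*, against 20.3, 20.6 and 19.5 CPM in Col (log2 fold change 1.37, standard error 0.106, adjusted p = 3.24e-12). It was also higher in *hsfa2* without HS, with 20.3, 18.5 and 20.2 CPM in *hsfa2* and 10.98, 9.55 and 12.7 CPM in Col (log2 fold change 0.83, adjusted p = 2.31e-05), and its mean at 4 h was 44.1 CPM in *hsfa3-1*. The other large rises, apart from *HSC70-2*, concerned genes with low levels, between 0.889 and 11.5 CPM in *hsfa2*. They were *AT3G47540* and *AT2G43620*, annotated as chitinases, the B-box gene *BBX32*, which overlaps another gene, the ethylene response factor *ESE3*, *AT4G18450* with the same type of DNA-binding domain, the RING gene *AT1G24580* and the uncharacterized *AT2G13550*, with log2 fold changes between 1.07 and 1.62. In *hsfa3-1* at 4 h, *AT2G13550* (log2 fold change 1.35), *ESE3* (1.27) and *AT3G47540* (0.69) were also higher than in Col (adjusted p between 0.00873 and 0.0468). *AT2G43620*, *BBX32*, *AT4G18450* and *AT1G24580* were not called there. *AT3G47540* had 5.05, 8.80 and 6.96 CPM in *hsfa2* and 2.73, 4.28 and 2.85 CPM in Col (adjusted p = 0.000131). The calls of *AT2G43620*, *AT1G24580*, *ESE3* and *BBX32* were lost without *hsfa2* replicate 2 (adjusted p = 0.135, 0.366, 0.243 and 0.121), and those of all 4 also without Col replicate 1, for *BBX32* also without *hsfa2* replicate 1 or 3, and for all but *ESE3* without Col replicate 3, with adjusted p-values between 0.0507 and 0.177.

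The genes called without HS were picked for their values. Of the 9, 6 were also called at 4 h in the same direction. Besides *UBQ14* and *GALS3*, *AT4G39170*, annotated as a Sec14-like lipid transfer protein, had 38.1, 33.6 and 34.7 CPM in *hsfa2* at 4 h, against 64.2, 68.9 and 60.1 CPM in Col, and 37.6, 31.2 and 30.9 CPM in *hsfa2* without HS, against 53.8, 52.8 and 49.2 CPM in Col. Its neighbour on the chromosome overlaps it. *MRD1* (AT1G53480) was at 0 in all *hsfa2* libraries at 4 h and without HS, and between 0.468 and 0.578 CPM in Col at 4 h, at least 5.05-fold lower in *hsfa2* against a floor of 3 counts per library. Its overlapping neighbour *HEI10* (AT1G53490) had 5.94, 4.98 and 5.05 CPM in *hsfa2* and 10.8, 8.94 and 7.70 CPM in Col at 4 h (log2 fold change −0.78, adjusted p = 0.00655). *AT4G15750*, annotated as an invertase or pectin methylesterase inhibitor, was at 0 in all Col libraries without HS and had 2.80, 1.02 and 1.89 CPM in *hsfa2*, at least 20.5-fold higher. The remaining 3, *AT1G55800*, *QQS* and *AT5G03090*, were not called at 4 h (adjusted p = 0.539, 0.071 and 0.412).

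The genes around *HSFA2* on chromosome 2 were examined because an insertion can affect its surroundings. Of 44 tested genes among the 30 on either side, 3 were lower (6.82%, beside 5.05% of all genes) and 1 was higher in *hsfa2* at 4 h.

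Whether the difference at 4 h also held later was tested by comparing it with the difference at 28 h, both relative to Col at the same time. The difference was more negative at 4 h for 366 genes (1.73%) and more positive for 149 (0.706%), and with the replicate number as a block for 598 and 418. Of the 7 counted genes with stronger repeated response, 6 were more negative at 4 h, and 3 were still lower in *hsfa2* at 28 h, where 2.29% of all genes were lower and 0.336% higher. *MYB86* had a log2 fold change of −3.35 at 4 h and −0.25 at 28 h (difference −3.10, standard error 0.422, adjusted p = 5.27e-06). *LPAT5* had −3.02 and −0.38 (difference −2.64, adjusted p = 2.85e-11), and *LACS9* had −1.94 and −0.32 (difference −1.62, adjusted p = 8.76e-11). *MIPS2* had −3.68 and −1.19 (difference −2.49, adjusted p = 3.45e-08).

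Among the 16 small HSPs the difference was more positive at 4 h than at 28 h for *HSP18.2* and *HSP22*, while no small HSP was more negative. *HSP18.2* had a log2 fold change of −0.90 at 4 h and −4.55 at 28 h, with 206, 115 and 140 CPM in *hsfa2* at 28 h, against 5428, 2915 and 2464 CPM in Col (difference 3.65, standard error 0.550, adjusted p = 3.14e-05). *HSP22* had −1.16 at 4 h and −3.57 at 28 h (difference 2.41, standard error 0.664, adjusted p = 0.0402). *HSP21* had −1.28 and −2.52 (difference 1.24, adjusted p = 0.299), *APX2* −2.38 and −3.19 (difference 0.81, adjusted p = 0.308) and *HSA32* −0.62 and −1.16 (difference 0.54, adjusted p = 0.382), which were not told apart between the times. *HSP101* was called at neither time, with −0.10 at 4 h and −0.63 at 28 h (adjusted p = 0.434 at 28 h).

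**Figure D5:**
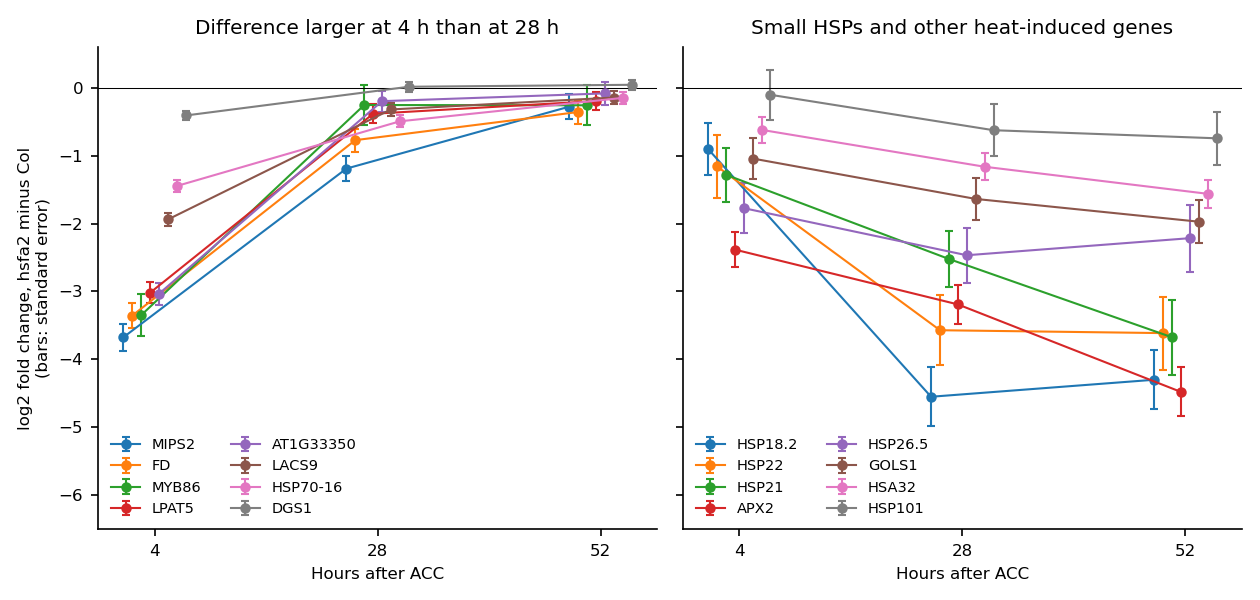
Log2 fold change of *hsfa2* minus Col at 4, 28 and 52 h after ACC, with bars of 1 standard error, for 8 genes with a larger fall at 4 h than at 28 h (left) and 8 other heat-induced genes (right). *MYB86* is at −3.35 at 4 h and −0.25 at 28 h, and *HSP18.2* is at −0.90 at 4 h and −4.55 at 28 h.

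*hsfa2* was last set against *hsfa3-1* at 4 h, a comparison that does not use the Col libraries. In *hsfa2*, 248 genes (1.17%) were lower and 46 (0.218%) higher than in *hsfa3-1*. All 10 genes with the largest falls against Col and all 7 counted genes with stronger repeated response were among those lower. The 10 genes had been chosen for low levels in the same *hsfa2* libraries, and *HSFA2*, the mutated gene, is among them. Their overlap is therefore no separate evidence. *MIPS2* averaged 192 ± 49.7 CPM (SD, n = 3) in *hsfa2* and 1140 CPM in *hsfa3-1* (log2 fold change −2.57, standard error 0.191, adjusted p = 3.46e-12). *MYB86* averaged 1.92 CPM in *hsfa2* and 16.7 CPM in *hsfa3-1* (log2 fold change −3.12, adjusted p = 5.52e-09), and *APX2* averaged 119 CPM in *hsfa2* and 338 CPM in *hsfa3-1* (log2 fold change −1.51, adjusted p = 0.000178). *HSFA4A* averaged 7.15 CPM in *hsfa2* and 6.58 CPM in *hsfa3-1*, and the interval of that difference was wide (log2 fold change 0.12, standard error 0.337, adjusted p = 1). No small HSP was called in this comparison. Among the 10 largest rises, *HSC70-2* (log2 fold change 1.32, adjusted p = 0.0031) and *AT4G18450* (1.51, adjusted p = 0.0144) were also higher in *hsfa2* than in *hsfa3-1*.

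The promoter window of 300 bases, 250 before to 50 after the annotated start, was searched for the core GAANNTTC or TTCNNGAA. It was present for 276 of the 1065 genes lower in *hsfa2* (25.9%), for 24 of the 154 higher genes (15.6%) and for 18.5% of the genes not called, and 19.1% of all 26711 windows held it. Among the 299 genes lower by a log2 fold change beyond 1, 95 held it (31.8%). The longer motif of 3 alternating units was present for 11 of the 1065 lower genes (1.03%), for 2 of the 154 higher genes and for 0.490% of all windows. In genes that were higher by a log2 fold change above 1 after ACC in *hsfa3-1*, the core was present for 29.7% of the 408 that were lower in *hsfa2* and for 21.5% of the 2679 that were not called. The longer motif was present for 1.47% of these 408 genes and 1.34% of these 2679. These shares are descriptions of the letters in the window and carry no test.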

How the data were processed

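RNA-seq counts of 48 libraries in 16 groups were used. The authors aligned paired reads to TAIR10 with STAR 2.5.1a (the version is given in the submitters' processing notes) and deposited unnormalized gene counts (read pairs) library by library, with no replicates pooled. The strand column that was kept is not given in the sources used here, so that genes overlapping another gene are uncertain. Of the 33323 genes in the files, 32835 matched the TAIR10.1 gene table by locus, and the 26712 protein-coding genes were kept, as in the authors' DESeq2 analysis.

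Counts were tested with edgeR 4.0.16 (limma 3.58.1, R 4.3.3) by the quasi-likelihood test, with filterByExpr (21107 genes), TMM sizes, a coefficient per group over all libraries (32 residual degrees of freedom) and Benjamini-Hochberg adjustment over all genes tested. Standard errors were obtained from the fold change and the F statistic (log2 fold change over the root of F). Pairs of libraries within the 2 groups differed by more than counting error (chi-square of 11.6 to 56.7 for each degree of freedom).

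Replicate numbers come from the titles. Deviations of *hsfa2* and Col libraries of the same number correlated at 0.61, 0.54 and 0.24, so that the numbers were taken to pair the libraries. The block is given where it changed a call between *hsfa2* and Col at 4 h or moved a count by over 1.5 times.

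Genes were named by rule: *HSFA2*, *HSFA3* and called HSFs, the 10 largest falls and rises at an adjusted p below 0.05 with groups that do not overlap and a mean of at least 1 CPM, up to 4 called members of each gene list, and the genes the study names for memory. Members and lists were chosen with earlier results of these data known. The pipeline was tested on simulated data. Alternatives were DESeq2 1.42.0, its size factors, no filter, a stricter filter, 12 or 6 libraries, all genes, the block, each library left out and other thresholds.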

Additional observations from a re-analysis of the deposited data

Results flagged for a closer look

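For the genes named above, the difference of *hsfa2* minus Col at 4 h was tested against that without HS, and log2 differences passed an adjusted p of 0.05 by edgeR's quasi-likelihood test as follows. They were more negative at 4 h for *AT2G34185* (−5.94), *AT5G11140* (−5.18), *MIPS2* (−3.80), *HSFA2* (−3.66), *MYB86* (−3.52), *AT5G03435* (−3.51), *FD* (−3.30), *AT4G31615* (−3.18), *STS* (−3.17), *LPAT5* (−2.97), *AT1G33350* (−2.93), *LACS9* (−1.97), *HSFA1E* (−1.47), *HSP70-16* (−1.47), *HSFA1D* (−0.95), *CPHSC70-1* (−0.81) and *DGS1* (−0.44). They were more positive at 4 h for *AT2G43620* (1.96), *HSC70-2* (1.49), *AT3G47540* (1.19) and *GALS3* (0.54). *HSFA4A*, more negative at 4 h, passed only with the replicate block (adjusted p = 0.0217, against 0.227 without it). Without HS, Col levels were near that of 3 counts for *AT2G34185* (0 to 0.0896 CPM), *AT5G11140* (0.0306 to 0.149 CPM) and *AT5G03435* (0 to 0.214 CPM). The size of the difference is therefore uncertain for these genes. The result was lost for *HSFA2* without *hsfa2* replicate 3 (adjusted p = 0.0534), for *AT5G03435* without Col replicate 2 (0.0523), for *HSC70-2* without *hsfa2* replicate 2 or Col replicate 1 or 3 (0.0692 to 0.0944), for *AT2G43620* without the same libraries (0.102 to 0.150) and for *GALS3* without any library but *hsfa2* replicate 3 (0.0603 to 0.181).

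Against 28 h, the same difference was more negative at 4 h for *AT2G34185* (−3.87), *MYB86* (−3.10), *AT1G33350* (−2.84), *LPAT5* (−2.64), *FD* (−2.58), *MIPS2* (−2.49), *AT4G31615* (−1.93), *LACS9* (−1.62), *HSP70-16* (−0.95), *HSFA1E* (−0.66), *HSFA1D* (−0.61) and *DGS1* (−0.42). It was more positive for *HSP18.2* (3.65), *HSP22* (2.41) and *GALS3* (0.68).

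Genes that are not protein-coding were outside the comparison. In a fit of all genes in the files, 27 of 658 such genes (4.1%) were lower and 7 (1.06%) higher in *hsfa2* than in Col at 4 h.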

How the results depend on the processing

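Of the 689 values of the 46 named genes at 4 h under the alternatives, 615 kept their direction and side of the threshold, 66 (14 genes) lost the call, 2 gained it (*HSP18.2* and *HSP22* with 6 libraries) and 6 turned sign, all for genes not called. Leaving out 1 library gave −0.45 to 0.070 for *HSP101* and −0.25 to 0.055 for *HSP70*, above 0 without *hsfa2* replicate 2 or 3 or Col replicate 1. Of 293 values of the difference between 4 h and no HS, 270 held and 23 (7 genes) lost the call, and of 28 without HS 27 held.

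With the replicate block, 1368 genes were lower in *hsfa2* at 4 h, all 1065 among them, and 310 higher, so that 81.5% of calls were lower against 87.4% without it. It changed no call of a named gene at 4 h. It gave 47 genes more positive at 4 h than without HS, 598 more negative and 418 more positive at 4 h than at 28 h and 92 higher than in *hsfa3-1*. Without 1 library, 769 to 1145 genes were lower and 78 to 156 higher at 4 h, 98 of them without *hsfa2* replicate 2 and 78 without Col replicate 3, and 405 to 591 were more negative and 12 to 22 more positive than without HS. Without HS it left 4 lower and 5 higher in each case. With 12 libraries, 88 genes were higher at 4 h, 0 lower and 1 higher without HS, and 346 more negative and 10 more positive at 4 h than without HS. With 6 libraries, 40 were higher and 94.8% of calls lower. DESeq2 gave 28 genes more positive than without HS, and the stricter filter 3 higher without HS.

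At an adjusted p of 0.01, 50 genes were higher at 4 h, 339 more negative and 7 more positive than without HS, 215 more negative and 33 more positive than at 28 h, and 27 higher than in *hsfa3-1*. At an unadjusted p of 0.05, 1919 were lower and 1018 higher at 4 h, 279 lower and 282 higher without HS, 1375 more negative and 456 more positive than without HS, 1362 more negative and 1517 more positive than at 28 h, and 886 lower and 492 higher than in *hsfa3-1*. The causes of these shifts were not tested. With 3 libraries a group, small differences of variable genes could not be told apart, and levels below 3 counts could not be told from 0.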

Other observations

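Enzymes of membrane and storage lipid synthesis were looked at after *LPAT5* and *LACS9* had been seen, and those given here were picked for their values at 4 h. Of the 38 enzymes tested, *LPAT5* and *LACS9* included, 10 were lower, 1 was higher and 27 were not called, beside 5.05% lower and 0.73% higher of all genes. Their median log2 fold change was −0.06, and with the replicate block 11 were lower. *DGD2* (AT4G00550, chromosome 4), which makes the galactolipid DGDG, had 58.1, 48.5 and 45.2 CPM in *hsfa2*, against 169, 190 and 167 CPM in Col (log2 fold change −1.79, standard error 0.0868, adjusted p = 3.12e-17). It had 16.2 to 16.9 CPM in *hsfa2* and 14.3 to 16.8 CPM in Col without HS. *CDS2* (AT4G22340, chromosome 4), which makes CDP-diacylglycerol, had 17.43, 15.2 and 14.1 CPM in *hsfa2*, against 41.9, 43.9 and 48.2 CPM in Col (log2 fold change −1.52, adjusted p = 1.96e-14), and it overlaps a neighbouring gene. Smaller falls were seen for *LACS8* (log2 fold change −0.72, adjusted p = 0.00063) and *DGAT2* (−0.57, adjusted p = 0.00162), and *NPC3*, a non-specific phospholipase C, was higher (0.56, adjusted p = 0.00755).

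Among the genes with the smallest p at 4 h, also picked for their values, *PD1* (AT2G27820, chromosome 2), a prephenate dehydratase of phenylalanine synthesis, had 47.1, 32.8 and 38.1 CPM in *hsfa2*, against 177, 198 and 180 CPM in Col (log2 fold change −2.23, adjusted p = 2.89e-16). *RLP44* (AT3G49750, chromosome 3), a receptor-like protein of cell wall signalling, had 2.35, 1.06 and 1.399 CPM in *hsfa2*, against 11.7, 11.6 and 11.6 CPM in Col (log2 fold change −2.87, adjusted p = 4.30e-14).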
